A study of Mus musculus with 8 samples.

Results

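The comparison of wild-type prepro natural killer cells (WT preproNK) with wild-type all-lymphoid progenitors (WT ALP) was made on 4 of the 8 arrays of the series. The 4 arrays were chosen by their labels, 2 for each population, and every gene with a probe set of 1 gene symbol was followed, which gave 17097 genes. Both populations were flow sorted from lineage-depleted bone marrow of mice carrying an Id2-GFP reporter, in which green fluorescent protein follows the activity of Id2. No source used here states the surface gates, the strain background, or the age and number of the mice. P-values therefore measure only how these samples scatter, and that scatter may be technical. Replicate 1 and replicate 2 of each group were processed on 2 different dates, and the other 4 arrays held ALP and preproNK cells of Nfil3 knockout (KO) mice with the same reporter. All values are deposited log2 expression values after RMA, a method that brings array signals to a common scale.

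ALP cells are early marrow progenitors that can still give rise to several lymphoid lineages, and they carry the receptor Flt3 and genes of antigen receptor rearrangement. PreproNK cells are an Id2-expressing stage between such progenitors and committed NK progenitors. Along this path progenitor factors are known to be replaced by factors shared with innate lymphoid cells, among them Id2, which blocks E proteins, and T-bet and Eomes, which drive NK maturation. Nfil3 is a bZIP transcription factor required for NK development.

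The replicate 2 arrays of both groups had narrow ranges of values. The SD over all probe sets was 1.39 on WT preproNK replicate 2 and 1.55 on WT ALP replicate 2, and it was 1.66 to 1.88 on the other 6 arrays. WT preproNK replicate 2 had a Pearson correlation across tested genes of 0.621 with WT preproNK replicate 1 and of 0.747 with WT ALP replicate 2. Sex-linked genes also set it apart, since Xist was at 7.94 on WT ALP replicate 2 and at 4.20 on WT preproNK replicate 2, and the Y-linked gene Eif2s3y was at 5.22 and 4.19 on the same arrays. On the replicate 1 arrays Xist was at 3.56 in ALP and 3.47 in preproNK, and Eif2s3y at 6.60 and 6.96. The difference between populations went with the level of the gene in the replicate 2 pair. Tested genes were split into quartiles by their mean KO ALP level, which no WT array enters. For the replicate 2 arrays the median difference (preproNK minus ALP) was -0.95 in the brightest quartile and 0.28 in the dimmest. For the replicate 1 arrays it was -0.10 and 0.12. Of 14 widely expressed reference genes such as Gapdh and Actb, none was called, and their median differences by replicate number were -0.065 and -1.12. Each result is therefore given by replicate number, and the part of the narrow ranges in it was not tested.

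**Figure D1:**
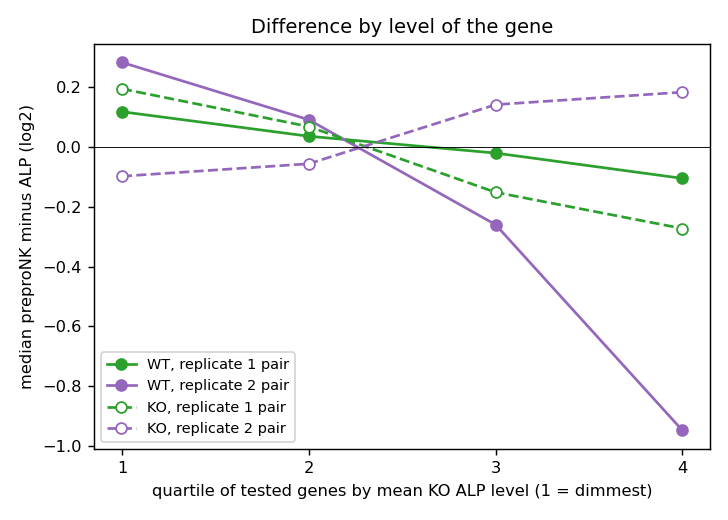
Median log2 difference (preproNK minus ALP, y axis) in 4 quartiles of tested genes ordered by mean KO ALP level (x axis, 1 is the dimmest), for each genotype and replicate number. The WT replicate 2 line runs from 0.28 to -0.95, and the other 3 lines stay between -0.27 and 0.19.

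Testing was limited to 11583 genes whose value exceeded the median probe set of the array on 2 or more arrays. In a limma model of the 4 group means, 11 genes (0.095% of those tested) were called at an adjusted p under 0.05. Of these, 4 (0.0345%) rose from ALP to preproNK and 7 (0.0604%) fell. Adding replicate number as a block, the model called 67 genes (0.578%), 31 (0.268%) higher and 36 (0.311%) lower, and all 11 were among them. At an unadjusted p under 0.05 there were 315 higher and 537 lower genes. Repeated quantile normalization gave 42 higher and 31 lower genes, so the balance of directions depends on the scaling. Across all tested genes the differences of the pairs correlated at 0.401, a description over genes that are not independent, and 60.4% had the same sign in both. A log2 difference of at least 2 in both pairs, a limit set after seeing the data, was reached upward by 36 genes (0.311%) and downward by 52 (0.449%).

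**Figure D2:**
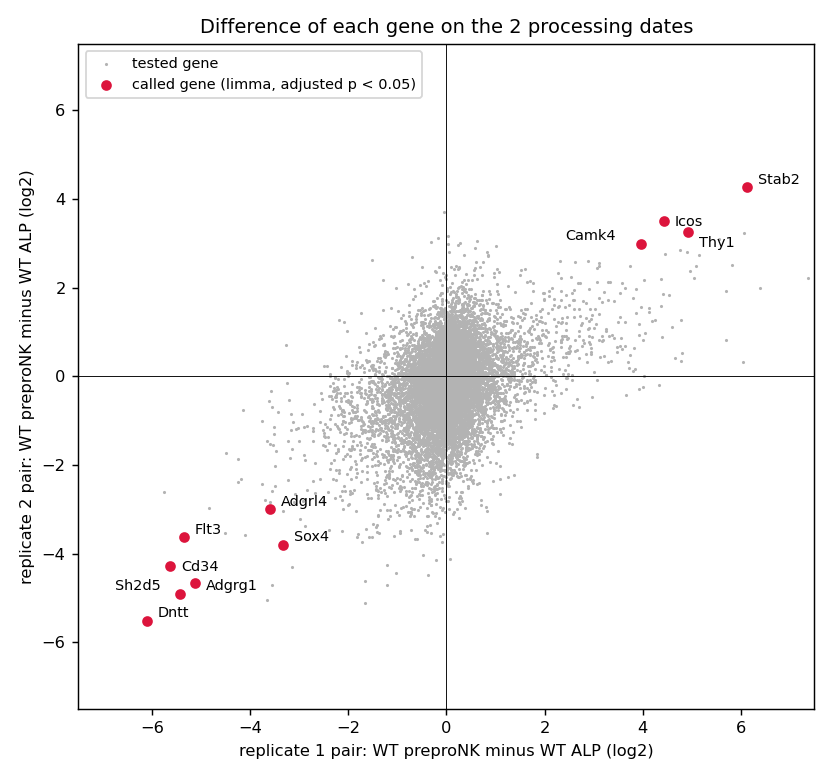
Log2 difference (WT preproNK minus WT ALP) of each of the 11583 tested genes in the replicate 1 pair (x axis) and the replicate 2 pair (y axis), with the 11 called genes in red and named. Dntt lies lowest, at -6.11 and -5.52, Stab2 lies at 6.13 and 4.27, and all 11 have the same sign on both axes.

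Of the 7 genes that fell, 5 are in the lists of progenitor and early lymphoid genes (Flt3, Adgrg1 and Cd34 among surface receptors, Sox4 among factors, Dntt among recombinase genes), and Sh2d5 and Adgrl4 are in none. Dntt, which encodes the terminal transferase that adds bases at antigen receptor junctions, was at 10.87 and 10.17 on the WT ALP arrays and at 4.76 and 4.65 on the WT preproNK arrays (replicates 1 and 2). Its mean fell by 5.81 (SE 0.38), a 56.2-fold lower level (adjusted p = 0.00519), and no preproNK array came near an ALP array. Adgrg1, an adhesion G protein-coupled receptor of stem and progenitor cells, was at 10.25 and 9.93 in ALP and at 5.14 and 5.27 in preproNK. It fell by 4.89 (SE 0.37, 29.6-fold, adjusted p = 0.00733), and both preproNK arrays lay far below both ALP arrays.

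Flt3, the receptor tyrosine kinase that defines lymphoid-primed progenitors, was at 9.14 and 8.10 in ALP and at 3.79 and 4.47 in preproNK. It fell by 4.49 (SE 0.49, 22.5-fold, adjusted p = 0.0343). Cd34, a sialomucin of early progenitors, went from 8.59 and 7.17 to 2.97 and 2.89, a fall by 4.95 (SE 0.49, adjusted p = 0.0217). Both preproNK values of Cd34 lay below the array median, here taken as near background, so its level was at least 13.3-fold lower. Both arrays labelled ALP thus had high Flt3, Cd34 and Dntt, and both labelled preproNK had all 3 at low values.

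Sox4, an SRY-box factor needed by early B lymphoid progenitors, was at 8.46 and 9.24 in ALP and at 5.14 and 5.44 in preproNK. It fell by 3.57 (SE 0.43, 11.8-fold, adjusted p = 0.0401), and its 4 other probe sets differed by -4.01 to -2.01. Sh2d5, which encodes an SH2 domain protein, went from 8.999 and 8.15 to 3.56 and 3.25 (difference -5.17, SE 0.43, adjusted p = 0.00955). Its preproNK values were near background, and the fold was at least 21.6. Adgrl4, another adhesion receptor, went from 6.19 and 5.55 to 2.60 and 2.56 (difference -3.29, SE 0.40, adjusted p = 0.0401), at least 3.32-fold lower. The other probe set of Adgrl4 differed by -3.28 for replicate 1 and -0.084 for replicate 2, so its probe sets disagree there.

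The 4 genes that rose include surface molecules of T and innate lymphoid cells. Thy1, a surface glycoprotein of T cells and innate lymphoid cells, was at 3.97 and 4.38 in ALP and at 8.90 and 7.63 in preproNK, a difference of 4.09 (SE 0.49, 17.1-fold, adjusted p = 0.0401). Icos, a costimulatory receptor of T cells and of type 2 innate lymphoid cells (ILC2), went from 5.55 and 5.67 to 9.98 and 9.18, a difference of 3.97 (SE 0.45, 15.6-fold, adjusted p = 0.0343). Its other 2 probe sets differed by 2.73 and 3.52. Camk4, a calcium-dependent kinase of lymphocytes, went from 3.80 and 4.18 to 7.77 and 7.17, a difference of 3.48 (SE 0.39, 11.2-fold, adjusted p = 0.0343). Its other 3 probe sets differed by 0.40 to 2.35. By replicate number they differed by 3.32, 3.76 and 1.02 for replicate 1 and by 0.80, 0.93 and -0.22 for replicate 2. The last of them was near background on every WT array. Its probe sets thus disagree on the size of the replicate 2 difference, which was 2.99 on the chosen one.

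Stab2, a scavenger receptor best known from sinusoidal endothelium, rose the most. It was at 3.93 and 4.82 in ALP and at 10.06 and 9.09 in preproNK, a difference of 5.1997 (SE 0.50, 36.8-fold, adjusted p = 0.0217). On the KO arrays it was at 3.92 and 4.34 in ALP and at 7.77 and 8.36 in preproNK.

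**Figure D3:**
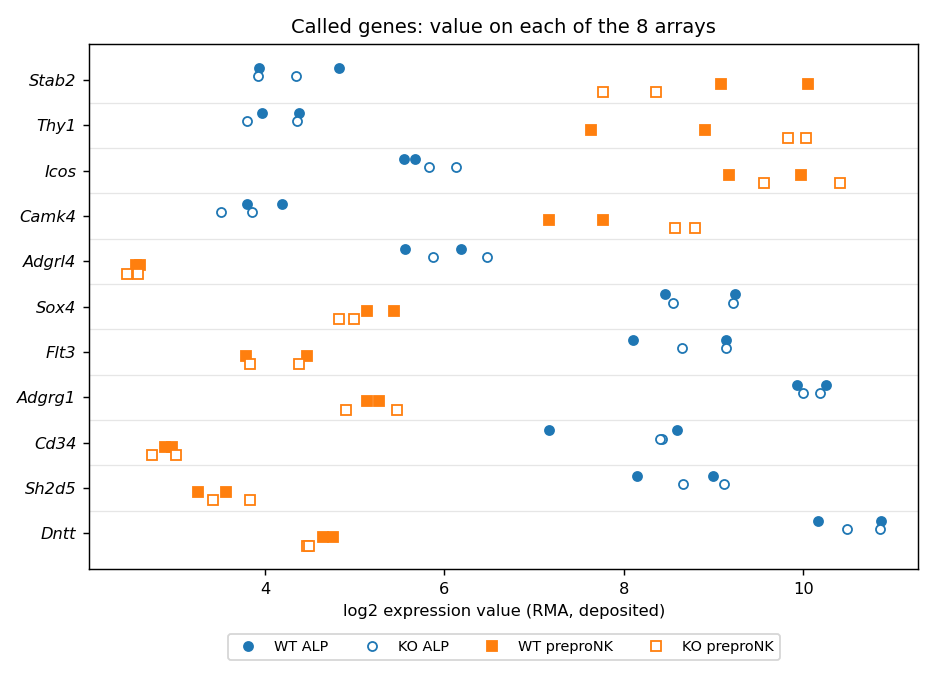
Log2 value (x axis) of the 11 called genes (y axis) on all 8 arrays, with filled points for WT and open points for KO, circles for ALP and squares for preproNK. For each gene the ALP and preproNK points do not overlap in either genotype, for instance 10.17 to 10.87 against 4.65 to 4.76 for WT Dntt.

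The promoters of the gene with the deepest fall and of the gene with the largest rise are shown because both moved by over 5 log2 units. Each is the 250 bases before the start of the gene on its own strand, from RefSeq (GRCm38.p6). The Dntt window lies at chr19:41029025-41029274 on the plus strand and the Stab2 window at chr10:87007943-87008192 on the minus strand. The 5 motifs searched on both strands were these, and capitals mark the matches. T-box factors were represented by the letters AGGTGTGA, and Runx factors by the letters TGTGGT. The E-box was spelled CAGGTG by the search, and the motif of GATA factors was taken as the letters AGATAA. For Nfil3 the palindrome TTACGTAA was used. The E-box and T-box letters share 5 bases, so 1 stretch can hold both.
Dntt: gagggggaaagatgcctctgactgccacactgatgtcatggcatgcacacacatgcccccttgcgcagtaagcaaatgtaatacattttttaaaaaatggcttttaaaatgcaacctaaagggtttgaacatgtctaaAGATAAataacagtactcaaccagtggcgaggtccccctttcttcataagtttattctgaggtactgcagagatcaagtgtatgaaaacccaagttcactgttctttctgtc
Stab2: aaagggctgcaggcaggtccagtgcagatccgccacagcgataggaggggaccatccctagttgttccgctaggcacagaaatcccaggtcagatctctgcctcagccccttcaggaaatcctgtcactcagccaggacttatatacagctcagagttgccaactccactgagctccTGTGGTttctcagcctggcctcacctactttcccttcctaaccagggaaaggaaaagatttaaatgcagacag
The Dntt window held a GATA match from base -112 to -107, counted back from the start, and the Stab2 window a Runx match from -73 to -68. The windows of Flt3 and Cd34 held none of the 5 motifs. A match is a description of letters and not a binding site.

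Among the 31 genes called higher with the block, 23 had a promoter in the table, and the E-box letters stood in 8 of them (34.8%) and the Runx letters in 6 (26.1%). Among the 36 genes called lower with the block, 30 had one, with the E-box letters in 9 and the Runx letters in 6 of these. Over the 9304 tested genes with a promoter the shares were 19.2% and 13.5%, and over all 27025 listed promoters they were 19.4% and 15.9%. The T-box letters stood in 1 of the 23 and 0 of the 30 windows, against 1.02% of tested genes, and the Nfil3 site in none of either, against 0.172%. These counts are small and were not tested.

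Transcription factors of early progenitors were lower in preproNK in most cases. Of 27 measured factors, Sox4 fell, and Bcl11a, Lmo2, Hoxa9, Lyl1 and Meis1 were also called lower with the block. Bcl11a, a zinc finger factor required for lymphoid development, went from 9.74 and 8.50 to 4.91 and 5.52 (difference -3.91, SE 0.56, adjusted p = 0.0853, 0.0378 with the block). Lmo2, a scaffold of the stem cell factor complex with Tal1, went from 8.28 and 7.16 to 4.18 and 3.59 (difference -3.83, SE 0.59, adjusted p = 0.0983, 0.0378 with the block). Lyl1, a partner of that complex, went from 7.70 and 7.88 to 4.10 and 5.05. The homeobox factor Hoxa9 went from 8.72 and 7.77 to 4.48 and 5.39, and its cofactor Meis1 from 7.39 and 5.597 to 3.63 and 3.16. In each of these 5 genes both preproNK values lay below both ALP values. The other probe set of Meis1 differed by -2.05 for replicate 1 and 0.78 for replicate 2, so its probe sets disagree there.

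Both preproNK arrays lay below both ALP arrays in 16 of the 27 factors and above them in 2. Over all 17097 measured genes the shares were 12.6% below and 9.43% above, and over the tested genes 14.9% and 9.73%. The same shares, and the 0.095% of tested genes called, are the background for the counts of every list below. The factors had a median difference of -1.42 for replicate 1 and -0.998 for replicate 2, against 0.017 and 0.016 over all measured genes. Their mean log2 level was 6.92 and 6.42 on the WT ALP arrays. Medians by replicate number were -0.10 and -0.95 in the brightest quartile of tested genes, and -0.02 and -0.26 in the next. For replicate 2 the factors were thus close to the brightest quartile. Spi1, which encodes PU.1, differed by -2.15 and -0.85 in the pairs, Mef2c by -2.35 and -0.88, and Myb, a regulator of progenitor growth, by -2.47 and -1.07. Gata2, Hlf, Gfi1 and Lmo4 had higher values in preproNK in both pairs, with none called. Hlf was at 5.14 and 5.17 in ALP and at 6.99 and 6.01 in preproNK. Of 16 measured surface receptors of progenitors, Flt3, Adgrg1 and Cd34 fell, and Cd93 was called lower with the block only (9.06 and 7.96 against 5.92 and 3.67). Kit, the stem cell factor receptor, was at 5.54 and 3.85 in ALP and at 4.48 and 3.21 in preproNK (adjusted p = 0.92), and its arrays overlapped.

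Genes of the recombinase and the early B lineage had no common direction. Of 17 measured, both preproNK arrays lay below both ALP arrays in 6 and above them in 0, and the median difference was -0.38 for replicate 1 and 0.25 for replicate 2. Dntt of this list fell. Irf8, which directs dendritic and B lineage choice, went from 9.11 and 8.82 to 6.01 and 5.99 (difference -2.97, SE 0.52, adjusted p = 0.14, 0.0466 with the block), and its other probe set differed by -4.14. Blnk, an adaptor of the B cell receptor, went from 6.59 and 5.95 to 3.10 and 3.48 (difference -2.98, SE 0.39, adjusted p = 0.0608, 0.0285 with the block). Rag1 was low in both populations, at 4.01 and 3.69 in ALP and 3.25 and 4.38 in preproNK, and its pairs differed in sign, while Rag2 differed by -1.58 and -0.14. Irf4, a factor of lymphocyte activation, was at 3.83 and 4.25 in ALP and at 4.19 and 6.42 in preproNK, and these values overlapped. Tcf4, an E protein of plasmacytoid dendritic cells and early lymphoid cells, differed by -2.39 and -3.47 and was not called (adjusted p = 0.34). Notch1, the receptor that steers progenitors to the T lineage, went from 9.92 and 9.08 to 7.95 and 6.21 without a call (adjusted p = 0.267, 0.0568 with the block). Hes6, a gene of the Hes family, was called lower with the block (8.02 and 7.18 against 6.16 and 4.91).

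Genes of DNA replication and mitosis were lower in preproNK as groups, with few single calls. Of 27 measured replication genes, 0 were called by limma and 1 with the block, 18 had an unadjusted p under 0.05, all of them lower, and both preproNK arrays lay below both ALP arrays in 22. That gene was Mcm7, a subunit of the replicative helicase, which went from 8.51 and 7.86 to 6.25 and 5.12 (difference -2.50, SE 0.48, adjusted p = 0.149, 0.0378 with the block). By replicate number the group's median differences were -1.51 and -1.78. Of 26 measured mitosis genes 0 were called, 11 had an unadjusted p under 0.05, all lower, and in 21 both preproNK arrays lay below both ALP arrays. Their median difference was -1.72 for replicate 1, where the brightest quartile of all tested genes differed by -0.10, and -0.97 for replicate 2, where it differed by -0.95. Mki67, the proliferation marker, was at 8.79 and 9.10 in ALP and at 7.29 and 5.78 in preproNK. Hmmr was the mitosis gene with higher values in both pairs (4.21 and 5.02 against 4.79 and 5.90).

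**Figure D4:**
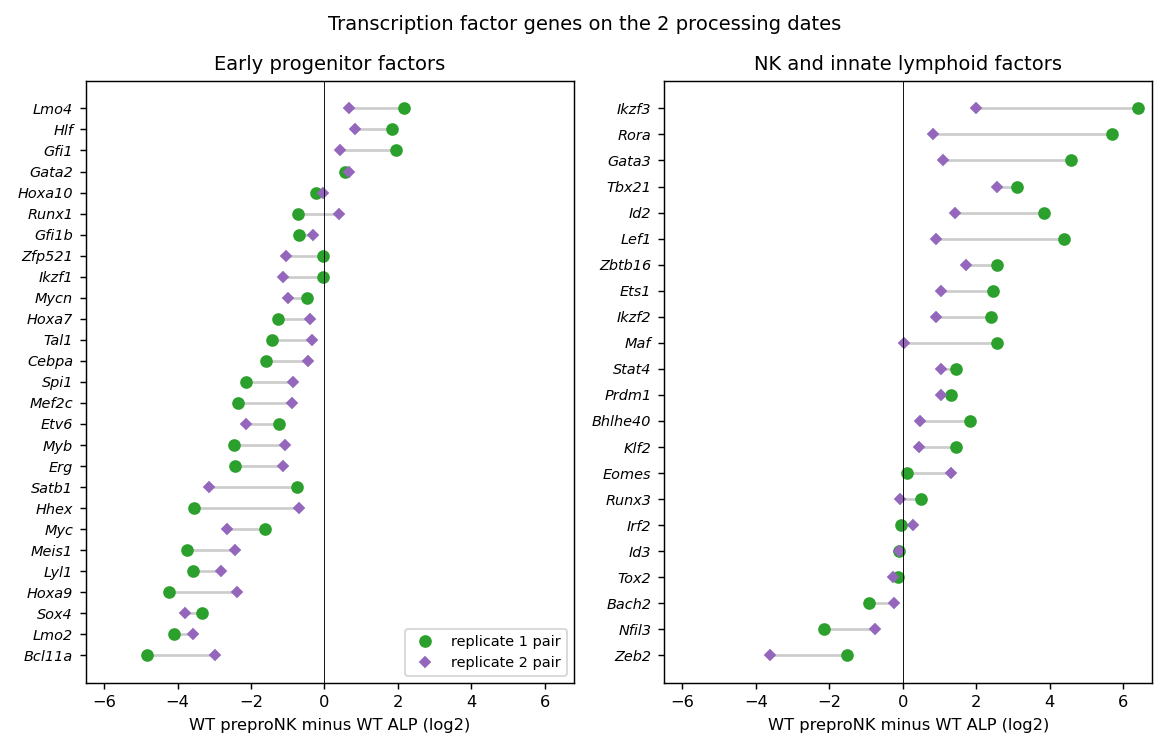
Log2 difference (WT preproNK minus WT ALP, x axis) of early progenitor factors (left) and of NK and innate lymphoid factors (right), with circles for the replicate 1 pair and diamonds for the replicate 2 pair. Bcl11a reaches -4.83 and -2.98 on the left, and Tbx21 3.11 and 2.56 on the right, while Rora reaches 5.70 and 0.83.

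Most named factors of NK and other innate lymphoid cells had higher values in preproNK, but none passed the test without the block. The T-bet gene Tbx21 stood at 2.56 and 2.86 in ALP, near background on both arrays, and at 5.67 and 5.42 in preproNK. Its difference was 2.84 (SE 0.44, at least 2.83-fold, adjusted p = 0.0983, 0.0348 with the block). Id2, the reporter gene, was at 6.83 and 6.94 in ALP and at 10.68 and 8.37 in preproNK (difference 2.64, SE 0.69, adjusted p = 0.296, 0.102 with the block). On this probe set both arrays labelled preproNK lay above both arrays labelled ALP. Its other probe sets were dim, each above the array median on 1 WT array. They differed by 2.94 and 2.98 for replicate 1 and by -0.14 and -0.083 for replicate 2. Zbtb16, which encodes PLZF of innate lymphoid precursors, went from 3.78 and 4.22 to 6.35 and 5.95 (difference 2.15, adjusted p = 0.148). Eomes was at 3.93 and 4.41 in ALP and at 4.04 and 5.73 in preproNK, so its arrays overlapped and its difference rests on the narrow-range array.

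Some of these factors differed mainly in the replicate 1 pair. Gata3, a factor of T cells and ILC2, was at 3.20 and 3.36 in ALP and at 7.79 and 4.46 in preproNK. Rora, a factor of ILC2 development, went from 3.88 and 3.49 to 9.58 and 4.32, and Ikzf3 from 4.11 and 4.65 to 10.51 and 6.66. Ets1 was at 6.92 and 5.41 in ALP and at 9.37 and 6.46 in preproNK, and these values overlapped. Its other probe sets differed by 2.44, 1.36 and 1.32 for replicate 1 and by 0.34, 2.49 and 0.32 for replicate 2. They thus disagree on which pair differed more. Nfil3 itself was at 6.89 and 5.50 in ALP and at 4.75 and 4.74 in preproNK (difference -1.45, SE 0.52, adjusted p = 0.507), so both preproNK values were the lower ones without a call. Zeb2, a factor of terminal NK maturation, had lower values as well, from 7.05 and 8.12 to 5.52 and 4.49. Over the 22 measured factors both preproNK arrays lay above both ALP arrays in 12 and below them in 3, and the median difference was 1.64 and 0.86 in the pairs.

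Receptors and effectors of mature NK cells ranged from background to bright in both populations. Of 31 measured NK receptors and adaptors, 13 were near background on both WT preproNK arrays and 0 were called, with 3 higher and 1 lower at an unadjusted p under 0.05. Both preproNK arrays lay above both ALP arrays in 13 of the 31 and below them in 2. Among the 20 tested they lay above in 8 and below in 1. The rest of these counts were untested genes, near background on most arrays. Over the 31 the median difference was 0.23 for replicate 1 and 0.22 for replicate 2. Ncr1, which encodes NKp46, was at 3.89 and 4.01 in preproNK, below both array medians, and was not tested. Klrb1c, which encodes NK1.1, was at 5.38 and 5.71 in ALP and at 5.84 and 5.96 in preproNK. Klrk1, which encodes NKG2D, went from 3.28 and 3.65 to 5.62 and 4.48 (adjusted p = 0.373). Cd244a, which encodes 2B4, used to define pre-NK stages, went from 6.69 and 6.46 to 4.29 and 4.96 (difference -1.95, adjusted p = 0.251), and its other probe set differed by -2.67 and 0.52 in the pairs. Il2rb, the receptor chain for interleukin 15, was at 3.87 and 4.68 in ALP and at 6.77 and 5.76 in preproNK (difference 1.99, adjusted p = 0.247).

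Of 22 cytotoxic and effector chemokine genes, 0 were called higher or lower, and Ccl5 had the largest higher value (3.73 and 3.93 against 6.56 and 5.598, adjusted p = 0.148). Both preproNK arrays lay above both ALP arrays in 6 of the 22 and below them in 1, and 6 were near background on all 4 WT arrays. Among granzymes, Gzma was at 2.62 and 3.05 in ALP and at 3.21 and 4.29 in preproNK. Gzmb was at 3.59 and 4.02 in ALP and at 4.23 and 4.10 in preproNK. Gzmm was at 4.03 and 4.61 in ALP and at 4.38 and 5.59 in preproNK. The preproNK values of Gzma and Gzmb were the higher ones on both arrays, those of Gzmm overlapped with ALP, and none of the 3 was called. All ALP values of Gzma and Gzmb were near background. So were the preproNK values of Gzma for replicate 1 and of Gzmb for replicate 2. Prf1, which encodes perforin, was at 7.68 and 7.47 in ALP and at 8.39 and 6.12 in preproNK, with opposite signs in the pairs. Cst7, an inhibitor of granule proteases, was called lower with the block (8.18 and 6.93 against 5.47 and 4.57). Nkg7, a granule membrane protein gene, was well above background in both populations, at 8.15 and 6.20 in ALP and at 7.41 and 6.09 in preproNK.

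T cell genes were higher in preproNK, though Thy1 and Icos alone of the 28 measured passed the test. Cd3e, the signalling chain of the T cell receptor, was at 2.93 and 3.48 in ALP, near background, and at 8.48 and 6.59 in preproNK (difference 4.33, SE 0.61, at least 11.2-fold, adjusted p = 0.0813, 0.0378 with the block). Bcl11b, a factor of T cells and ILC2, went from 4.56 and 5.40 to 8.69 and 6.94 (adjusted p = 0.22), and Cd3g from 3.49 and 3.42 to 8.27 and 4.69. Both preproNK arrays lay above both ALP arrays in 18 of the 28 and below them in 1, and the median differences by replicate number were 1.43 and 0.72. Ptcra, the pre-T receptor chain, was near background on every WT array, and Cd8a and Cd8b1 differed by 0.09 and 0.02. The variable gene Trgv1 of the gamma T cell receptor chain, named after its values were seen, went from 2.88 and 4.31 to 10.24 and 6.54 (adjusted p = 0.227, 0.102 with the block).

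Several genes typical of ILC2 and of gamma delta T cells had higher values too. Il17rb, the interleukin 25 receptor of ILC2, was at 6.38 and 5.84 in ALP and at 10.83 and 8.60 in preproNK (difference 3.60, SE 0.67, adjusted p = 0.148, 0.0378 with the block). Pparg, a nuclear receptor active in ILC2, went from 3.86 and 5.04 to 7.88 and 7.22, called with the block only. Arg1, the arginase of ILC2 and their precursors, went from 3.85 and 4.38 to 8.81 and 6.74 (adjusted p = 0.148, 0.0662 with the block). The ILC2 cytokine genes Il4, Il5 and Il13 were all at or below 4.22 on the WT arrays. Over 12 measured ILC2 genes the median difference was 2.41 and 0.54 in the pairs, 7 had both preproNK arrays above both ALP arrays and 0 had them below. Of 8 measured gamma delta T cell genes, 5830411N06Rik, a scavenger receptor gene, was called with the block (3.72 and 4.56 against 7.47 and 7.06), while Il17a was near background on every WT array. Both preproNK arrays lay above both ALP arrays in 5 of the 8 and below them in 1, with median differences of 1.86 and 0.41 by replicate number. The gene below was Il1r1, the interleukin 1 receptor, at 6.14 and 6.67 in ALP and at 4.26 and 5.33 in preproNK (adjusted p = 0.331). With bulk RNA, fewer cells of a type and less RNA per cell cannot be told apart, so these levels may belong to all cells of the sort or to some of them.

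Of 27 measured S1P receptor, chemokine receptor and integrin genes, 0 were called, and both preproNK arrays lay above both ALP arrays in 11 and below them in 2. The median difference was 0.9987 for replicate 1 and 0.30 for replicate 2. Itgb3, an integrin chain, was at 4.45 and 5.12 in ALP and at 9.60 and 7.87 in preproNK (difference 3.95, SE 0.59, adjusted p = 0.0933, 0.0378 with the block), and its other probe set differed by 3.45. S1pr1, the receptor for exit from tissues, went from 3.73 and 3.42 to 5.83 and 5.34, and the chemokine receptor gene Cxcr3 from 4.30 and 4.12 to 7.82 and 5.99, both called with the block. Cx3cr1, a chemokine receptor gene of mature NK and myeloid cells, had lower values, from 5.52 and 5.35 to 4.23 and 4.34, and so did Itgax. Of 8 GIMAP GTPase genes, which act in lymphocyte survival, Gimap3 was called with the block (4.25 and 5.63 against 10.33 and 8.86). Gimap4 went from 3.35 and 3.93 to 8.39 and 6.16, and Gimap1, Gimap6 and Gimap9 differed in opposite directions in the pairs. Genes of the S100 and annexin families had median differences of 0.99 and -0.083 by replicate number, with 0 of 19 called. Of 21 lymphocyte cytokine receptor genes, 0 were called and only Il17rb was with the block. Il2ra went from 3.56 and 4.87 to 9.27 and 6.799, and Il18r1 from 5.44 and 5.19 to 8.04 and 6.54, while Il21r had lower values (6.98 and 7.11 against 5.71 and 4.68).

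**Figure D5:**
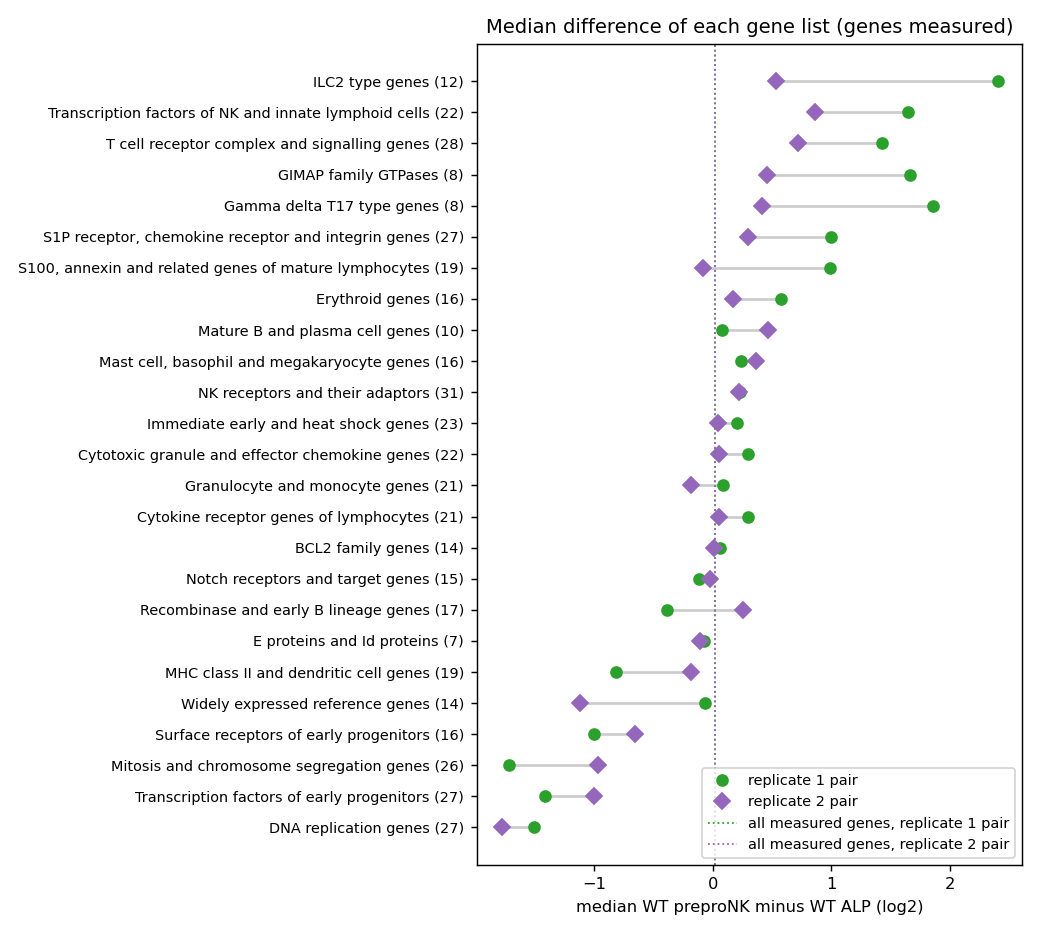
Median log2 difference (WT preproNK minus WT ALP, x axis) over the measured genes of each list (y axis, number of genes in brackets), with circles for the replicate 1 pair and diamonds for the replicate 2 pair, and dotted lines for all measured genes. Replication genes lie at -1.51 and -1.78 and ILC2 genes at 2.41 and 0.54, while reference genes lie at -0.065 and -1.12.

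Markers of other marrow cells were checked beside these groups. Over all measured genes both preproNK arrays lay below both ALP arrays in 12.6% and above them in 9.43%, and 0.095% of tested genes were called. Of 19 MHC class II and dendritic cell genes, 9 had both preproNK arrays below both ALP arrays, none had them above and 0 were called. H2-Ab1 went from 8.88 and 7.99 to 7.26 and 6.50. Of 21 granulocyte and monocyte genes 0 were called, with 4 above and 5 below on both arrays. Mpo, the myeloperoxidase gene, went from 10.40 and 8.96 to 8.75 and 5.52 (adjusted p = 0.705). Cybb of the same list had higher values, from 3.84 and 3.59 to 6.12 and 5.16. Of 16 erythroid genes 0 were called, with 5 above and 1 below on both arrays. Hba-a1 was at 9.72 and 9.47 in ALP and at 11.43 and 9.71 in preproNK, and these values overlapped. Hba-a2 had lower values in both pairs (9.80 and 9.26 against 9.56 and 8.82), and Hbb-b2 differed by 1.80 and -0.75. Of 16 mast cell, basophil and megakaryocyte genes 0 were called, with 2 above and 1 below on both arrays. Near background on both preproNK arrays were 8 of the 16. Mcpt8, a basophil protease gene, was at 5.06 and 4.94 in ALP and at 7.56 and 6.56 in preproNK (adjusted p = 0.81). Cpa3 of the same list differed by 1.99 and -0.82 in the pairs. Mature B and plasma cell genes had a mean log2 level of 4.05 to 4.57 on the 4 WT arrays, highest on WT preproNK replicate 2. Of 10 measured, 2 lay above and 2 below on both arrays. Ighm was at 3.11 and 4.34 in ALP and at 3.37 and 6.08 in preproNK. The part of such cells in the differences above was not tested.

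The same comparison was made in cells lacking Nfil3. It was not independent of the WT one, since the filter, the choice of probe set and the fitted spread used all 8 arrays and the dates were shared, and with only the 4 WT arrays 0 genes were called in WT. In KO, 203 genes (1.75%) were called, 141 (1.22%) higher and 62 (0.535%) lower in preproNK. All 11 genes were also called in KO in the same direction, with adjusted p from 0.00221 for Dntt to 0.0116 for Stab2. Dntt differed by -6.20 in KO and -5.81 in WT, and Icos by 4.01 and 3.97. Thy1 differed by 5.86 in KO and 4.09 in WT, a change larger by 1.77 (SE 0.70) whose test had an adjusted p of 1. No gene was called for a genotype difference in the change (limma), and 183 had an unadjusted p under 0.05. Of the 88 genes that differed by at least 2 in both WT pairs, 82 had the same sign in both KO pairs. That share was 50.5% among the 6998 genes with the same sign in both WT pairs and 42.4% among all tested genes. The 6 exceptions were Astx6, Aurkb, Btbd35f21, Ccnf, Lrrc52 and Ncapg, of which Aurkb, Ccnf and Ncapg are genes of cell division. Lrrc52 was at 2.82 and 3.10 in WT ALP, at 5.16 and 5.32 in WT preproNK and at 3.09 and 2.84 in KO preproNK, and its other probe set in WT differed by 0.19. It was called in WT with the block only (adjusted p = 0.0983, 0.0378 with the block).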

How the data were processed

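RNA was amplified for 23 cycles and hybridised to 1-colour arrays, per the labels' protocols. The deposited values are on a log2 scale, and the submitters' processing notes name RMA and Partek, used by the authors with settings and build not given in the sources used here. Precision is limited by how many arrays there are. Of 45141 probe sets, 28898 had 1 gene symbol in the platform annotation, 551 had several and 15692 were not listed, and 28689 matched RefSeq by Entrez number with 0 symbols changed. Each of 17097 genes was represented by the probe set brightest on average across the 8 arrays, and 7180 genes had several to choose from. Some list genes, among them Tox, Il7r and Tcf7, had no such probe set and were not analysed here.

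Limma 3.58.1 was fitted with 4 group means and all 8 arrays (R 4.3.3, lmFit and eBayes, 4 residual degrees of freedom), tested two-sided and adjusted by Benjamini-Hochberg over all 11583 genes tested, with calls at an adjusted p under 0.05. The fit was tested on simulated data with independent noise whose spread came from the KO arrays. That simulation held no narrow-range arrays and no replicate effect, so it does not show how the fit behaves with them. Values under the median probe set of their array were taken as near background, and a fold against 2 such values was set against that median and written as at least. Per the series design a replicate number stands for a processing date. Between groups, the replicate 1 arrays' departures from the group mean correlated at 0.608 to 0.807 among WT ALP, WT preproNK and KO ALP. With KO preproNK they correlated at 0.149 to 0.205. The replicate 2 arrays of WT preproNK, WT ALP and KO ALP also had the lowest SDs of values (1.39, 1.55 and 1.66). These correlations therefore do not show that the numbers pair the samples, and their source was not tested. The block enters as an alternative, printed where it changes a call.

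The comparison, the gene lists and the rules were chosen with earlier results of these data known. Named were Nfil3, Id2, Flt3, Kit, Tbx21, Eomes, Gata3, Ets1, Zbtb16, Il2rb, Cd244a and Rag1, up to 12 called genes each way of largest difference and the same sign in both pairs, with the 12 of smallest unadjusted p in a direction with under 5 calls, and per list up to 4 called members or else 3 of smallest unadjusted p, shortened from the end. Other list members and genes given as examples were named after their values were seen. Alternatives were the block, the filter, the scaling, the choice of probe set, the variance model, array weights, a floor and each array left out.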

Additional observations from a re-analysis of the deposited data

Results flagged for a closer look

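Il1r1, the interleukin 1 receptor gene, had differences of opposite sign in the 2 genotypes, in both pairs of each. It was at 6.14 and 6.67 in WT ALP and at 4.26 and 5.33 in WT preproNK, against 6.06 and 6.06 in KO ALP and 6.30 and 6.13 in KO preproNK. The change in KO minus that in WT was 1.76 (SE 0.63), and limma's test of that difference had an adjusted p of 1.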

How the results depend on the processing

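All 11 called genes kept their direction under all 20 alternatives, but each lost its call under some, and with only the 4 WT arrays 0 genes were called (lowest adjusted p 0.326 by limma, 427 genes at an unadjusted p under 0.05). The replicate block gave 31 higher and 36 lower genes, and with only the WT arrays and the replicate block 0 and 3. No filter gave 2 and 4, repeated quantile normalization 42 and 31, scaling to equal spread 7 and 11, and array weights 0 and 1. The mean of all probe sets gave 2 higher genes. Leaving out 1 array gave 0 to 170 higher and 0 to 654 lower genes. Without WT preproNK replicate 1 there were 170 and 654, without WT preproNK replicate 2 136 and 28, and without that array but with the replicate block 290 and 141. Without WT ALP replicate 1 there were 0 and 0, without WT ALP replicate 2 0 and 4, without either KO ALP array 0 and 3 and without either KO preproNK array 0 and 2. Fits without 1 array of a group assume that the lone array varies like the others. The stricter filter, limma-trend and the floor at the array median kept both counts within 1.5 times. No gene was called for a genotype difference under the alternatives with KO arrays. The cause of these shifts was not tested. Among the genes named, the block changed the calls given beside them and no other.

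List medians kept their sign for early progenitor, replication, mitosis, T cell, ILC2 and NK factor genes under quantile normalization and scaling. Without WT preproNK replicate 1, S100 and annexin genes had a median of -0.37, and without WT preproNK replicate 2, reference genes had one of 0.17. Eomes changed sign without WT preproNK replicate 2, and Rag1 without WT preproNK replicate 1 or WT ALP replicate 1.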
